A study of Mus musculus with 6 samples.

Results

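Messenger RNA of 8 transcription factors of stem-like and memory lymphocytes, Tcf7, Lef1, Myb, Bach2, Id2, Id3, Tox and Tox2, was followed in 2 kinds of group 1 lymphocyte from mouse tumours, type 1 innate lymphoid cells (ILC1s) and their relatives the natural killer (NK) cells. The factors were taken by symbol from a table of 55291 genes, in which all 8 were found, and 7 of them were among the 14475 genes with enough counts to be tested. MC38 colon carcinoma cells, a line of C57BL/6 origin, were placed under the skin of wild-type C57BL/6 mice, and both cell types were sorted from the tumours 14 days later. There were 3 ILC1 libraries and 3 NK libraries, and the mice of both groups carried the same tumour and no other treatment that the labels name. Neither the sort gate nor the mice behind each sample were described in the sources used, and the p-values speak of the spread among these samples, which may be technical.

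TCF-1 (encoded by Tcf7) and LEF-1 are sister proteins with a high mobility group (HMG) box that bind the same DNA sequence. They work with beta-catenin or with Groucho-type corepressors, and in NK cells and innate lymphoid progenitors TCF-1 is needed for normal development. MYB keeps progenitors and stem-like T cells dividing without loss of potential, and BACH2 is a repressor that holds back effector programmes in T cells. ID2 and ID3 lack a DNA-binding region and tie up E proteins, and ID2 is required for the innate lymphoid lineages. TOX and TOX2 are HMG-box proteins known from innate lymphoid development and from exhausted T cells.

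The libraries held 16931099 to 20224847 counts. Levels are given as CPM, a count relative to its library size, with sizes scaled by the trimmed mean of M values (TMM). Ncr1, which encodes the group 1 receptor NKp46, was at 330 to 362 CPM in ILC1 libraries and at 408 to 656 CPM in NK libraries. Libraries did not follow cell type alone. The summed level of 10 macrophage markers was 13370 CPM in ILC1 replicate 3, against 285 to 385 CPM in the other ILC1 libraries and 109 to 283 CPM in NK libraries. The summed level of 8 fibroblast and matrix markers was 1116, 1661 and 57.0 CPM in ILC1 replicates 1 to 3, against 5.89, 13.1 and 934 CPM in NK replicates 1 to 3. ILC1 replicates 1 and 2 and NK replicate 3, which share high matrix markers, form a set picked from these values and are named matrix-rich below. Results within this set, which has a single NK library, are given as values with no test. Beside them stand values from a fit of all 6 libraries with a term for such library sets. In that fit too the cell type difference rests on NK replicate 3 against ILC1 replicates 1 and 2, so it is no separate check. Its p-values hold no spread between NK replicate 3 and the other NK libraries.

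The level of Tcf7 and Myb was several-fold lower in ILC1s than in NK cells, and that of Lef1 and Bach2 was lower by a smaller factor. Id2 was at a high level in both cell types, Id3 overlapped because 1 NK library stood at the level of the ILC1s, Tox also overlapped between them and Tox2 had almost no counts. Of the 7 tested factors 0 passed edgeR's quasi-likelihood test at a Benjamini-Hochberg adjusted p of 0.05, where 0.0829% of all tested genes passed (0.0760% higher in ILC1s and 0.00691% lower). Before adjustment, 4 of the 7 factors (Tcf7, Lef1, Myb and Bach2) were lower in ILC1s at a p under 0.05, against 8.82% of all tested genes, and 0 were higher, against 6.95%. For 5 of the 7 every ILC1 library lay below every NK library, which held for 13.3% of all tested genes, and for 0 every ILC1 library lay above, which held for 12.5%. Per Ncr1 count only Tcf7 and Myb of these 5 stayed apart, while Lef1, Bach2 and Id2 overlapped. DESeq2 called Tcf7 and Myb lower and none higher, where it called 4.03% of tested genes lower and 2.94% higher, and limma-voom called 0 of the 7. The median log2 fold change (ILC1 minus NK) of the 7 factors was -0.84, beside 0.08 for all tested genes. In bulk samples, fewer cells of a type and less RNA per cell cannot be told apart.

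**Figure D1:**
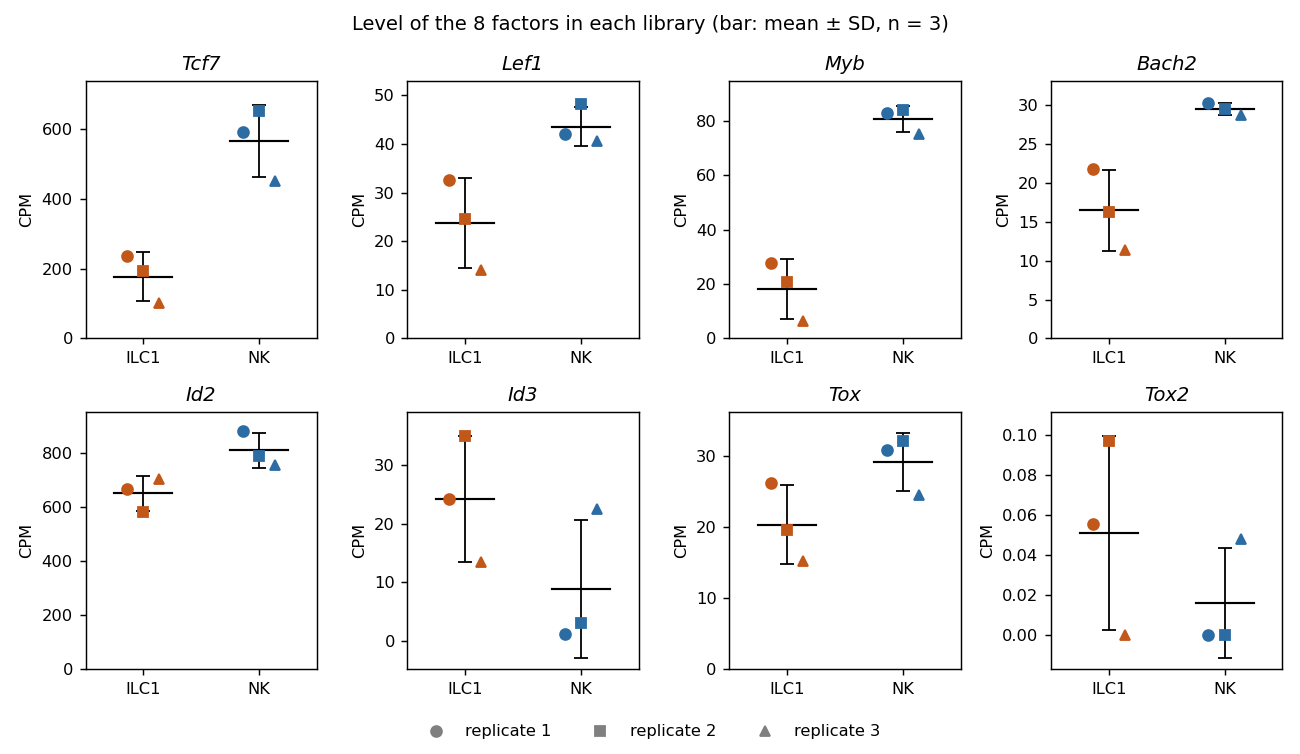
Level in CPM (linear axes) of each of the 8 factors in the 3 ILC1 libraries and the 3 NK libraries, with the mean ± SD as a bar. All 3 ILC1 libraries lie below all 3 NK libraries for Tcf7, Lef1, Myb, Bach2 and Id2 (per Ncr1 count, for Tcf7 and Myb alone), while Id3 and Tox overlap and Tox2 stays under 0.1 CPM.

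Tcf7 lies on the reverse strand of chromosome 11 (GRCm38, chr11:52252371-52283014). Its level was 238, 195 and 100.3 CPM in ILC1 replicates 1 to 3, against 592, 654 and 453 CPM in NK replicates 1 to 3. The groups did not overlap, and within each group the lowest library was replicate 3. The means were 178 ± 70.4 CPM in ILC1s, against 566 ± 103 CPM in NK cells (± SD over 3 libraries each), which is 3.19-fold lower in ILC1s. The log2 fold change was -1.67 ± 0.35 (SE; edgeR adjusted p = 0.140). DESeq2 gave an adjusted p of 5.5e-05 and limma-voom one of 0.112. Within the matrix-rich libraries alone the log2 fold change was -1.11, and a fit with a term for library sets gave -1.07 (edgeR adjusted p = 0.115). Counting by strand is not described, and the antisense gene A630014C17Rik held 7, 26 and 0 counts in ILC1 libraries and 73, 74 and 32 counts in NK libraries. Tcf7 itself held 1730 to 4275 counts in ILC1 libraries and 9438 to 12733 counts in NK libraries, many times those of the antisense gene.

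Lef1 lies on the forward strand of chromosome 3 (chr3:131110471-131224356). Its level was 32.5, 24.6 and 14.0 CPM in ILC1 replicates 1 to 3, against 42.0, 48.2 and 40.5 CPM in NK replicates 1 to 3. The groups did not overlap, and the highest ILC1 library, replicate 1, came close to the lowest NK library, replicate 3. The log2 fold change was -0.88 ± 0.31 (edgeR adjusted p = 0.280, DESeq2 adjusted p = 0.113), with means of 23.7 ± 9.27 CPM in ILC1s, against 43.6 ± 4.09 CPM in NK cells. A term for library sets gave -0.51 (edgeR adjusted p = 0.625), leaving out the macrophage-rich ILC1 replicate 3 gave -0.62, and the matrix-rich libraries alone gave -0.55. The ratio of Lef1 to Tcf7 was higher in ILC1s. Per 100 Tcf7 counts there were 13.7, 12.6 and 14.0 Lef1 counts in ILC1 replicates 1 to 3 and 7.09, 7.37 and 8.94 in NK replicates 1 to 3. This ratio of raw counts needs no library size, it did not overlap between the groups, and 0.1 is the smallest two-sided p that an exact permutation test of 3 against 3 can give.

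Myb, on the reverse strand of chromosome 10 (chr10:21124935-21160984), had the most negative fold change of the 7. Its level was 27.8, 20.7 and 6.26 CPM in ILC1 replicates 1 to 3, against 82.9, 84.0 and 75.4 CPM in NK replicates 1 to 3. The NK libraries lay close together, whereas the ILC1 libraries spread widely, with replicate 3 lowest. The means were 18.2 ± 10.97 CPM in ILC1s, against 80.8 ± 4.70 CPM in NK cells, which is 4.43-fold lower in ILC1s. The log2 fold change was -2.15 ± 0.53 (edgeR adjusted p = 0.185, DESeq2 adjusted p = 0.000915, limma-voom adjusted p = 0.111). Without ILC1 replicate 3 it was -1.75 (edgeR adjusted p = 0.0513), and within the matrix-rich libraries alone it was -1.68. A term for library sets gave -1.64 (edgeR adjusted p = 0.0632). Myb counts per 100 Tcf7 counts were 11.7, 10.6 and 6.24 in ILC1 replicates 1 to 3 and 14.0, 12.8 and 16.6 in NK replicates 1 to 3. The ratio did not overlap, and was lower in ILC1s. The antisense gene Gm26577 held at most 9 counts in an ILC1 library and 26 in an NK library.

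Bach2 lies on the forward strand of chromosome 4 (chr4:32238804-32586108). Its level was 21.8, 16.3 and 11.4 CPM in ILC1 replicates 1 to 3, against 30.3, 29.5 and 28.7 CPM in NK replicates 1 to 3. The groups did not overlap, and the 3 NK libraries lay close together. The means were 16.5 ± 5.23 CPM in ILC1s, against 29.5 ± 0.794 CPM in NK cells, with a log2 fold change of -0.84 ± 0.26 (edgeR adjusted p = 0.243, DESeq2 adjusted p = 0.0720). Within the matrix-rich libraries alone it was -0.64, and a term for library sets gave -0.59 (edgeR adjusted p = 0.582). Bach2 is also a gene of B cells. The summed level of 6 B cell markers was 280, 383 and 296 CPM in ILC1 replicates 1 to 3, against 581, 331 and 308 CPM in NK replicates 1 to 3. Nearly all of it was Ighm, Pax5 was at 0.612 CPM or less in every library, and the part of B cells in the level of Bach2 was not tested. The antisense gene Bach2os held 15 to 27 counts in ILC1 libraries and 3 to 32 counts in NK libraries, beside 196 to 392 and 575 to 607 counts of Bach2.

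Tcf7, Myb, Lef1 and Bach2 are the 4 factors with an unadjusted p under 0.05, though none passed after adjustment, and stretches of 300 bases around a start of each are shown for the letters that TCF-1 and LEF-1 (CTTTGA, or TCAAAG on the other strand) and MYB (AACNG, or CNGTT) are known to bind. The stretches are RefSeq's on GRCm38.p6, run from 250 bases before to 50 bases after the start, and carry matches to either motif in capitals. They are chr11:52282965-52283264 (reverse strand, the first of 2 starts of Tcf7), chr10:21160935-21161234 (reverse, Myb), chr3:131156044-131156343 (forward, the last of 4 starts of Lef1) and chr4:32417185-32417484 (forward, Bach2).
Tcf7: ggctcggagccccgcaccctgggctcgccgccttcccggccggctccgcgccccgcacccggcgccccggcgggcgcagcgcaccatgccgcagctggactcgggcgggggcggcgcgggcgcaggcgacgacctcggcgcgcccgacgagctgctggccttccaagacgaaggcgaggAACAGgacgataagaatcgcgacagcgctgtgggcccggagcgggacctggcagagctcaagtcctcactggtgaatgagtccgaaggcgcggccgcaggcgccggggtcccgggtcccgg
Myb: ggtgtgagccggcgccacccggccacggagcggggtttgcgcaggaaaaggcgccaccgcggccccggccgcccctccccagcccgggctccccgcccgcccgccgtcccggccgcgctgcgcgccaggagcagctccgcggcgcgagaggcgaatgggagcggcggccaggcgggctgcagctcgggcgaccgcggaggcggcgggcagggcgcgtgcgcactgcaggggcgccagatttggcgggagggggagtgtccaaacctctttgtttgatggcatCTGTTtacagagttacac
Lef1: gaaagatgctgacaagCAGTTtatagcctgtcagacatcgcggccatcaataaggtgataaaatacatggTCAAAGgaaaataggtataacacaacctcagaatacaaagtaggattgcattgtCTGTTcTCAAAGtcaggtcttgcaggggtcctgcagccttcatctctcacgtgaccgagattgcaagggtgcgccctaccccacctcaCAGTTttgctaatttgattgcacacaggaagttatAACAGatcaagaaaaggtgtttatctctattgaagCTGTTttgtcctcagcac
Bach2: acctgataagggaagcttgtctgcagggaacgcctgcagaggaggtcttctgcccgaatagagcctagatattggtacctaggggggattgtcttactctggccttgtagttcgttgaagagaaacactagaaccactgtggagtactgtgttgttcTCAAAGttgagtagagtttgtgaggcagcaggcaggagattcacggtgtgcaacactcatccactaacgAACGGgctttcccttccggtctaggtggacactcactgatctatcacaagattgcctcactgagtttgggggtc
The MYB letters stand 71 bases before this start of Tcf7, 32 bases after that of Myb and 24 bases before that of Bach2, and 5 times in the stretch of Lef1. In the stretch of Tcf7 the letters ATG ahead of this match open a reading frame with no stop up to the end of the stretch. The match lies in that frame, so it may be in coding sequence and not in a promoter. The other start of Tcf7, not shown, holds 3 matches to them. TCAAAG stands 180 and 120 bases before this start of Lef1 and 93 bases before that of Bach2, and the other 3 starts of Lef1 hold no match to it. The stretches shown for Lef1 and Bach2 lie inside the gene spans given above, and not ahead of them. Of the other factors only Tox2 has a match to the TCF/LEF letters, at 2 of its 5 starts, while Id2, Id3 and Tox2 hold MYB letters. Neither motif overlaps the other in these stretches. The TCF/LEF letters occur in 16% of the 32851 promoter stretches of the same length and the MYB letters in 80.3%, so that a MYB match sets no promoter apart. The letters are a description and not a measured site. Promoter stretches were found for 7 of the 8 factors, all but Tox.

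ID2 is the ID protein of innate lymphoid cells, and Id2 (reverse strand, chr12:25093799-25097140) had the highest level of the 8. It was at 667, 579 and 702 CPM in ILC1 replicates 1 to 3, against 882, 788 and 756 CPM in NK replicates 1 to 3. The groups did not overlap on this scale. The means were 649 ± 63.1 CPM in ILC1s, against 809 ± 65.5 CPM in NK cells, with a log2 fold change of -0.32 ± 0.14 (edgeR adjusted p = 0.346). Unlike Tcf7, Myb, Lef1 and Bach2, Id2 was not lowest in ILC1 replicate 3.

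Set against Id2 in the same library, Tcf7 kept its difference. There were 35.6, 33.6 and 14.3 Tcf7 counts per 100 Id2 counts in ILC1 replicates 1 to 3 and 67.1, 83.0 and 60.0 in NK replicates 1 to 3. Myb gave 4.16, 3.57 and 0.892 per 100 Id2 counts in ILC1 libraries and 9.40, 10.7 and 9.97 in NK libraries. Neither ratio overlapped between the groups.

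Id3 lies on the forward strand of chromosome 4 (chr4:136143497-136145755) and is known in T cells as a factor of memory and naive states. Its level was 24.3, 34.9 and 13.4 CPM in ILC1 replicates 1 to 3, against 1.15, 3.03 and 22.4 CPM in NK replicates 1 to 3. The third NK library lay within the ILC1 range while NK replicates 1 and 2 held only 23 and 59 counts. The means were 24.2 ± 10.7 CPM in ILC1s, against 8.87 ± 11.8 CPM in NK cells, and the log2 fold change of 1.45 ± 1.101 did not pass (edgeR adjusted p = 0.566). Without NK replicate 3 it was 3.54 (edgeR adjusted p = 0.0625), and within the matrix-rich libraries 0.36. Limma-voom with estimated library weights called it higher, with a log2 fold change of 3.38 and an adjusted p of 0.0458. No other gene of GENCODE M21 overlaps Id3.

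The libraries with more Id3 were also those with more matrix and proliferation mRNA. The summed level of 7 proliferation markers was 1032, 1146 and 453 CPM in ILC1 replicates 1 to 3, against 402, 416 and 759 CPM in NK replicates 1 to 3. ILC1 replicate 3 had 13.4 CPM of Id3 with 57.0 CPM of the matrix markers, and NK replicates 1 and 2 had 1.15 and 3.03 CPM of Id3 with 5.89 and 13.1 CPM of them. Counts of the defining markers Col1a1 and Col3a1 were low for NK replicate 1 (11 and 7) and NK replicate 2 (16 and 81). They were higher for ILC1 replicate 3 (84 and 359) and NK replicate 3 (1716 and 8395). ILC1 replicate 1 (2091 and 8472) and ILC1 replicate 2 (2750 and 15645) had the most. Pdgfra, of the same list, had a count of 0 for NK replicate 1. The part of cells with these markers in the level of Id3 was not tested. The related gene Id1, another ID factor, was at 11.3, 17.6 and 14.2 CPM in ILC1 replicates 1 to 3, against 1.099, 0 and 9.18 CPM in NK replicates 1 to 3, which puts NK replicate 3 again above the other NK libraries.

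**Figure D2:**
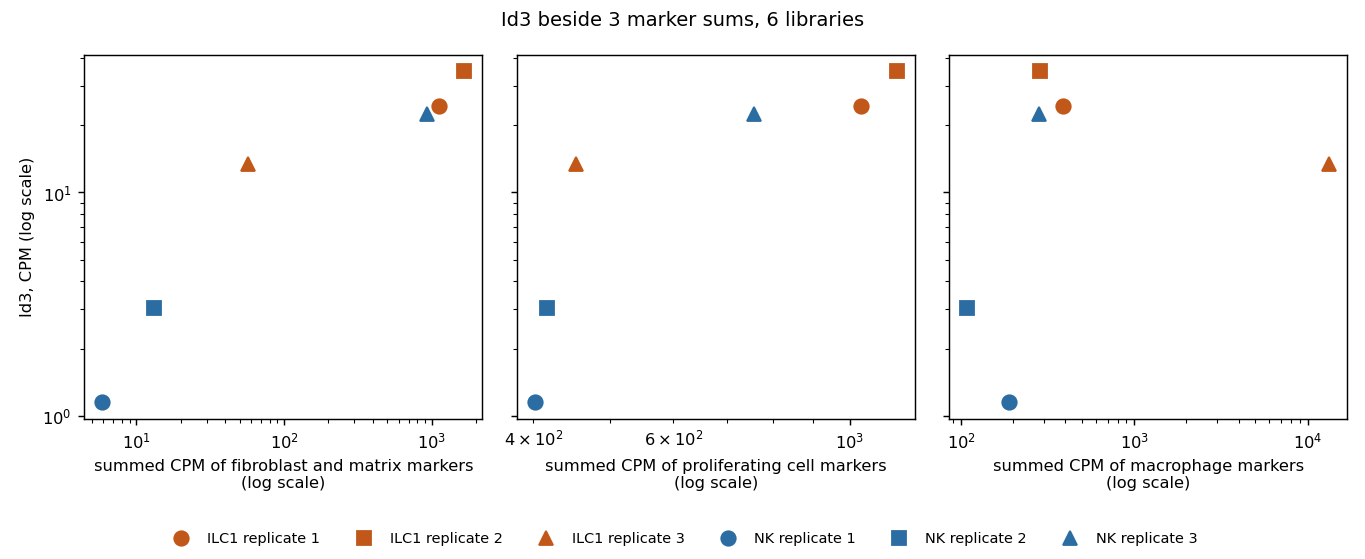
Level of Id3 in CPM against the summed CPM of fibroblast and matrix markers, proliferating cell markers and macrophage markers in the 6 libraries, on log axes. NK replicate 3, at 22.4 CPM of Id3 and 934 CPM of matrix markers, lies beside ILC1 replicates 1 and 2, while the macrophage sum of ILC1 replicate 3 is 13370 CPM with 13.4 CPM of Id3.

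E proteins are the targets that ID2 and ID3 tie up. Per kilobase of exon, the summed level of Tcf3, Tcf4 and Tcf12 was 35.4 ± 5.91 CPM in ILC1s, against 42.1 ± 3.87 CPM in NK cells (n = 3 each), and the groups overlapped. Id2 alone stood at 7.75 ± 2.06 times that sum in ILC1s and at 7.89 ± 0.418 times in NK cells, with overlap. Of the 5 tested genes of the list of E proteins and other ID genes, 0 passed edgeR's test and 0 had an unadjusted p under 0.05 in either direction. The list median was 0.36, from 3 positive and 2 negative fold changes.

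Tox lies on the reverse strand of chromosome 4 (chr4:6686353-6991557). Its level was 26.2, 19.6 and 15.2 CPM in ILC1 replicates 1 to 3, against 30.8, 32.2 and 24.5 CPM in NK replicates 1 to 3. ILC1 replicate 1 lay above NK replicate 3, so the groups overlapped. The means were 20.3 ± 5.55 CPM in ILC1s, against 29.2 ± 4.08 CPM in NK cells, a log2 fold change of -0.52 ± 0.25 (edgeR adjusted p = 0.365). A term for library sets gave a log2 fold change of -0.10 (edgeR adjusted p = 0.949), and within the matrix-rich libraries alone -0.14.

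Tox2, on the forward strand of chromosome 2 (chr2:163203125-163324170), held 1, 2 and 0 counts in ILC1 replicates 1 to 3 and 0, 0 and 1 in NK replicates 1 to 3. A count of 0 allows up to 3 counts, or 0.144 to 0.174 CPM in these libraries (counting error only), and a difference in Tox2 was not detectable at this depth. Tox3 was not tested either, with 0.334 CPM or less in every library. Tox4, a broadly expressed relative, was at 102 ± 16.3 CPM in ILC1s, against 97.5 ± 9.44 CPM in NK cells, with a log2 fold change of 0.06 ± 0.16 (edgeR adjusted p = 0.864) that was negative in 2 of the alternative settings.

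The size of these differences depended on the scale. Ncr1, chosen as a scale after its values were seen, was itself at a lower level in ILC1s (log2 fold change -0.72, edgeR adjusted p = 0.228). Dividing by its counts therefore moves the log2 difference of every gene upward, toward ILC1s, by about that size. Per 100 Ncr1 counts only Tcf7 and Myb of the 7 factors kept the groups apart. Tcf7 gave 65.7, 56.0 and 30.4 counts per 100 Ncr1 counts in ILC1 replicates 1 to 3 and 91.6, 99.6 and 111 in NK replicates 1 to 3. Myb gave 7.67, 5.95 and 1.90 in ILC1 replicates 1 to 3 and 12.8, 12.8 and 18.5 in NK libraries. For Lef1 the ratio was 6.76 ± 2.38 in ILC1s and 7.93 ± 1.79 in NK cells, for Bach2 4.72 ± 1.29 in ILC1s and 5.41 ± 1.41 in NK cells, both with overlap. On this scale the log2 differences of Tox and Id2 turned positive, to 0.14 ± 0.22 and 0.37 ± 0.21 (SE), both with overlap.

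**Figure D3:**
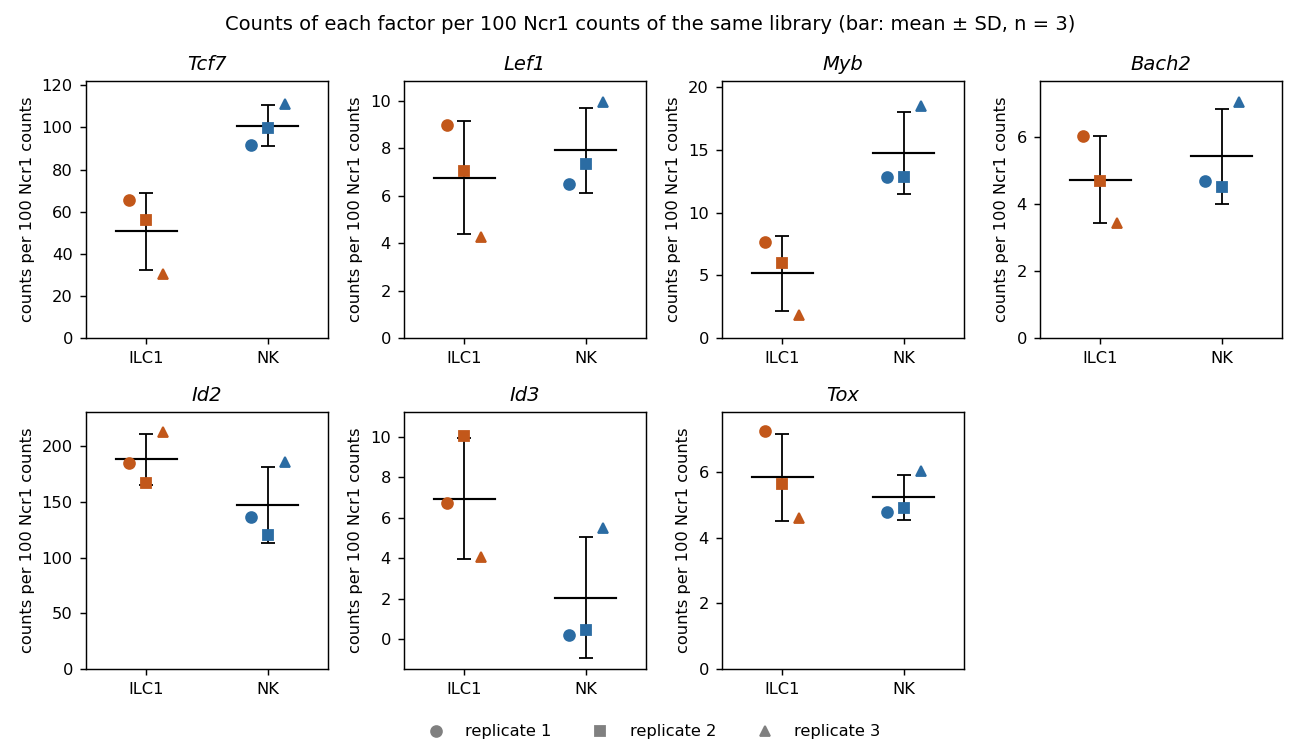
Counts of each tested factor per 100 counts of Ncr1 in the same library, for 3 ILC1 and 3 NK libraries, with the mean ± SD as a bar. Tcf7 (30.4 to 65.7 in ILC1s, 91.6 to 111 in NK cells) and Myb (1.90 to 7.67 in ILC1s, 12.8 to 18.5 in NK cells) do not overlap, and the other 5 factors do.

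**Figure D4:**
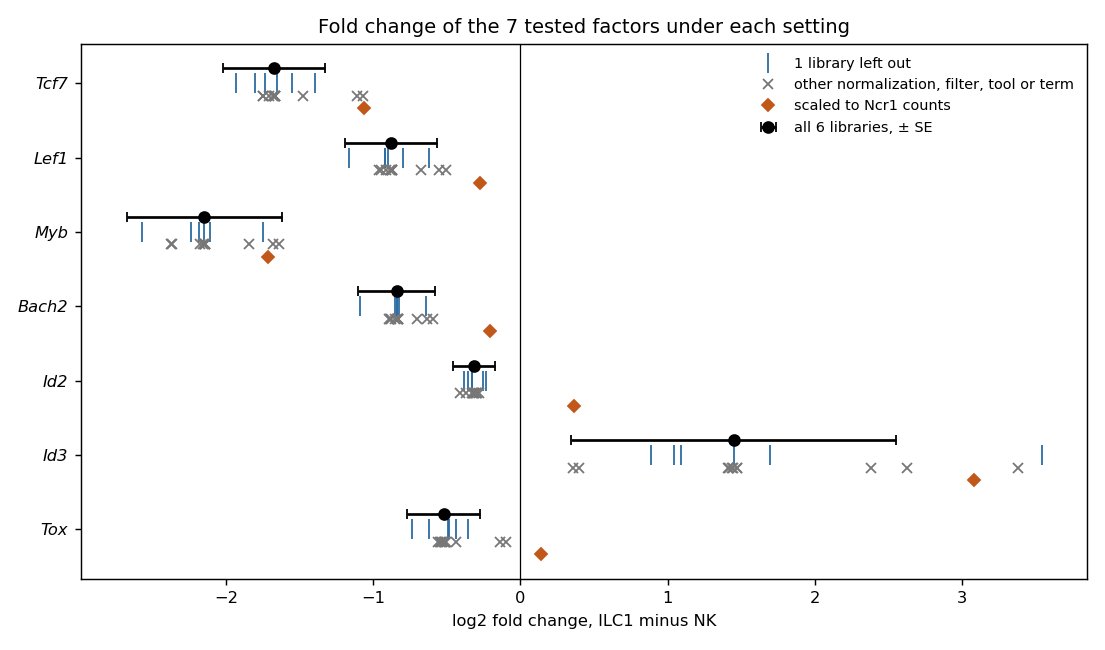
Log2 fold change (ILC1 minus NK) of the 7 tested factors with all 6 libraries (± SE), with 1 library left out, under other normalizations, filters, tools and terms, and scaled to Ncr1 counts. Tcf7 ran from -1.93 to -1.07 and Myb from -2.57 to -1.64 over the settings other than the Ncr1 scale, while Id3 ran from 0.36 to 3.54.

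Levels of different genes were compared per kilobase of the union of exons. In ILC1s the order was Id2 with 266 ± 25.9 CPM per kilobase, Tcf7 with 67.7 ± 26.8, Id3 with 13.5 ± 6.00, Lef1 with 2.70 ± 1.05, Tox with 2.67 ± 0.729, Myb with 2.04 ± 1.23, Bach2 with 1.66 ± 0.526 and Tox2 with 0.0150. The levels of Lef1, Tox, Myb and Bach2 in ILC1s lay within their spread of each other. In NK cells the order was Id2 with 332 ± 26.9 CPM per kilobase, Tcf7 with 216 ± 39.1, Myb with 9.04 ± 0.526, Lef1 with 4.96 ± 0.465, Id3 with 4.95 ± 6.58, Tox with 3.84 ± 0.536, Bach2 with 2.97 ± 0.0799 and Tox2 with 0.00471. Lef1 and Id3 could not be placed apart there. Myb thus stood next after Tcf7 in NK cells, and below Id3, Lef1 and Tox in ILC1s. With the longest transcript as the length, Tox and Id3 exchanged places in NK cells.

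The factors fell into profiles over the 6 libraries, compared by the root mean square difference of log2 CPM after each gene was centred on its own mean. The closest pair was Lef1 and Bach2, at 0.12, followed by Bach2 and Tox at 0.21. Tcf7 stood at 0.41 from Lef1 and at 0.44 from Myb, and Id3 stood at 1.91 or more from every other factor. These distances share the same 6 libraries and are given with no test.

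Among 8844 tested genes with a mean of at least 10 CPM, the 3 nearest to Tcf7 were Arhgef18 (0.05, with 40.0 ± 15.6 CPM in ILC1s, against 128 ± 22.2 CPM in NK cells), Zfp831 (0.11) and Sh2d1a, which encodes the adaptor SAP (0.13). Nearest to Myb were Serpinb9b (0.19), Aff3 (0.19) and S1pr1, the receptor that draws lymphocytes out of tissue (0.20). Dab2ip, Zfp579 and Fam214a were nearest to Lef1, at 0.09 to 0.11, and Ccdc88c, Tut4 and H2-Q5 to Bach2, at 0.06 to 0.07. St3gal4, Ttc17 and Entr1 lay at 0.03 to 0.04 from Id2, and Unc5a, Map4k2 and Rnf43 at 0.08 from Tox. No gene came so close to Id3, where Wipi1, Nuf2, a kinetochore gene, and Tjp1 lay at 0.27 to 0.34.

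Partner genes of TCF-1 and LEF-1 in the Wnt pathway went both ways. Of 17 tested, 0 passed edgeR's test, and the median log2 fold change was 0.11. At an unadjusted p under 0.05, 2 were higher and 2 lower, against 6.95% and 8.82% of all tested genes. The corepressor genes differed in sign. Tle1 had 17.4 ± 6.08 CPM in ILC1s, against 6.18 ± 2.18 CPM in NK cells (edgeR adjusted p = 0.187), while Tle3 had 191 ± 25.2 CPM in ILC1s, against 314 ± 51.2 CPM in NK cells (edgeR adjusted p = 0.181). Tle4 had 52.2 ± 7.74 CPM in ILC1s, against 80.1 ± 9.67 CPM in NK cells. The Wnt co-receptor gene Lrp5 had 34.7 ± 1.77 CPM in ILC1s, against 7.33 ± 5.64 CPM in NK cells (edgeR adjusted p = 0.173).

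In the list of stem-like and memory lymphocyte genes, 10 of 14 tested members had a negative fold change. Of the 14, 0 passed edgeR's test adjusted over all tested genes, and the median log2 fold change was -0.94. At an unadjusted p under 0.05, 6 were lower and 1 higher, against 8.82% and 6.95% of all tested genes. DESeq2 called 5 lower and 1 higher, against 4.03% and 2.94%. The higher gene was Il7r by both, with 73.7 ± 58.5 CPM in ILC1s, against 22.4 ± 5.23 CPM in NK cells (DESeq2 adjusted p = 0.0294). S1pr1 had 6.69 ± 3.48 CPM in ILC1s, against 35.8 ± 6.55 CPM in NK cells (edgeR adjusted p = 0.127). The costimulatory receptor gene Cd27 had 36.5 ± 10.0 CPM in ILC1s, against 107 ± 32.5 CPM in NK cells, and the chromatin organiser gene Satb1 143 ± 50.4 CPM in ILC1s, against 365 ± 36.8 CPM in NK cells. A term for library sets gave a list median of -0.44.

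Other partners showed few differences. Of the 6 MYB relatives and cofactors, 0 passed and 0 had an unadjusted p under 0.05, and the cell cycle factor Mybl2 had 19.6 ± 12.1 CPM in ILC1s, against 10.9 ± 9.44 CPM in NK cells. Of 7 partners and rivals of BACH2, 0 passed, with a median of 0.68. Among them 2 were higher and 0 lower at an unadjusted p under 0.05, against 6.95% and 8.82% of all tested genes. The small MAF gene Maff had 170 ± 13.8 CPM in ILC1s, against 101 ± 21.3 CPM in NK cells (edgeR adjusted p = 0.185), and Irf4 8.02 ± 6.31 CPM in ILC1s, against 2.92 ± 0.191 CPM in NK cells.

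Of 12 innate lymphoid lineage factors, 0 passed edgeR's test, with a median of -0.05. Before adjustment, 3 were higher and 1 lower at a p under 0.05, against 6.95% and 8.82% of all tested genes. The lower one was Eomes, and Zfp683 (Hobit), Rora and Ikzf2 were the higher ones. Eomes, which NK cells need to mature, had 125 ± 51.8 CPM in ILC1s, against 494 ± 115 CPM in NK cells (edgeR adjusted p = 0.127). Zfp683, a factor of tissue residency, had 51.5 ± 10.3 CPM in ILC1s, against 4.97 ± 2.21 CPM in NK cells (edgeR adjusted p = 0.0830). Ikzf2, which encodes Helios, had 28.0 ± 2.13 CPM in ILC1s, against 19.4 ± 4.45 CPM in NK cells (edgeR adjusted p = 0.312).

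Tox was also set beside 12 genes that are linked to TOX in exhausted T cells. Of these, 1 rose in ILC1s and 0 fell by edgeR's adjusted p, against 0.0760% and 0.00691% of all tested genes, and the median was 0.69. At an unadjusted p under 0.05, 5 were higher and 1 lower, against 6.95% and 8.82% of all tested genes. Havcr2, 1 of these 5, was at 12.9, 11.8 and 127 CPM in ILC1 replicates 1 to 3, highest in the macrophage-rich library. Its level was 2.85, 3.70 and 4.71 CPM in NK replicates 1 to 3. The one that rose was Pdcd1, the gene of the inhibitory receptor PD-1, with 122 ± 59.2 CPM in ILC1s, against 4.07 ± 0.359 CPM in NK cells and a log2 fold change of 4.90 ± 0.40 (edgeR adjusted p = 0.0377), while Tox had -0.52. The edgeR adjusted p of Pdcd1 was above 0.05 when ILC1 replicate 1 (0.124) or 2 (0.0887) or NK replicate 1 (0.327) or 2 (0.295) was left out, with log2 fold changes of 4.91 to 5.10, and limma-voom gave 0.0543. Nr4a3 had 165 ± 20.2 CPM in ILC1s, against 90.1 ± 2.59 CPM in NK cells, a log2 fold change of 0.87 ± 0.13 (edgeR adjusted p = 0.103). Ctla4 had a log2 fold change of 1.72 ± 0.18 (edgeR adjusted p = 0.0579) and Lag3 one of 1.65 ± 0.27 (edgeR adjusted p = 0.106). The receptor gene Tigit went the other way, with 86.4 ± 14.6 CPM in ILC1s, against 192 ± 38.5 CPM in NK cells. Its log2 fold change was -1.15 ± 0.21 (edgeR adjusted p = 0.120, DESeq2 adjusted p = 7.4e-05).

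**Figure D5:**
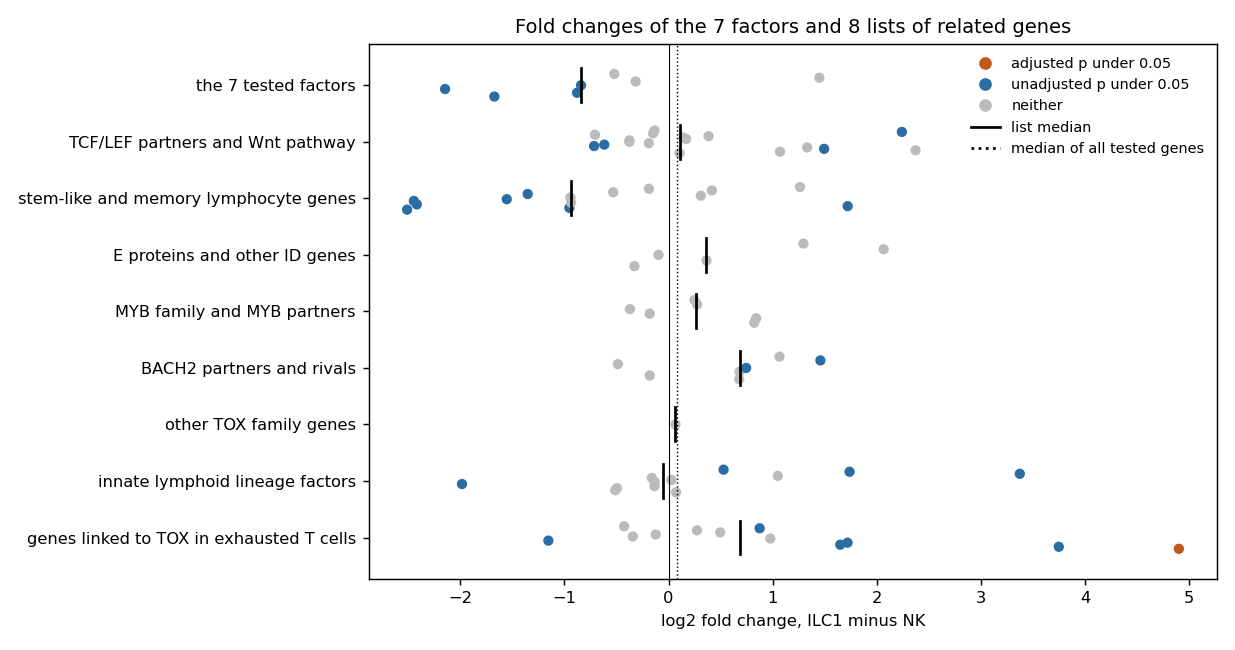
Log2 fold change (ILC1 minus NK) of each tested gene among the 7 factors and in 8 lists of related genes, with list medians as vertical bars. The medians of the 7 factors (-0.84) and of the stem-like and memory lymphocyte genes (-0.94) lie left of the median of all tested genes (0.08), and Pdcd1 is the single gene past the adjusted threshold.

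Tcf7, Lef1, Bach2 and Tox are also expressed by T cells, so T cell genes were read in the same libraries. Cd3e was at 10.7, 7.31 and 24.1 CPM in ILC1 replicates 1 to 3, against 4.89, 14.2 and 6.53 CPM in NK replicates 1 to 3. Cd8a was at 7.57, 4.63 and 39.1 CPM in ILC1 libraries and at 1.80, 0.719 and 2.50 CPM in NK libraries, and Cd4 was at 5.73 CPM or less in every library. ILC1 replicate 3, the lowest of the 6 libraries in Tcf7, Lef1, Bach2 and Tox, was highest in Cd3e and Cd8a. It was also highest in Cd3d, Cd3g, Cd8b1 and Cd5, and narrowly in Trac and Trbc2, but lowest in Trbc1, at 192 CPM. The summed level of 12 T cell markers was 536 to 669 CPM in ILC1s, against 635 to 699 CPM in NK cells, most of it from Trbc1, Trbc2 and Cd28. The share of T cells in the level of the factors was not tested. Without ILC1 replicate 3, 5 factors were lower at an unadjusted p under 0.05 (Id2 in addition to the 4 above), against 9.54% of genes tested in that fit. Without NK replicate 3, 3 were lower (Tcf7, Myb and Bach2), against 10.4%.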

How the data were processed

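Poly(A) mRNA was read as single ends of 50 bases, per the labels' protocols. The authors deposited raw counts per gene symbol for the 6 libraries. HISAT2 2.1.0, featureCounts 2.0.1 and GRCm38 are named, per the submitters' processing notes. No source used here states the annotation release, strand setting or handling of multi-mapping, so counts of overlapping antisense genes may be shared, and with no molecular identifiers described counts can include PCR copies. The 6 libraries held 16931099 to 20224847 counts, intervals and limits cover counting error only, and no pair of libraries agreed within sampling noise (the closest 2 had a median chi-square of 2.42 over genes, against 0.455 for counting error).

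Genes were tested with edgeR 4.0.16 in R 4.3.3 (TMM, filterByExpr, robust quasi-likelihood fit with cell type as the term, Benjamini-Hochberg over 14475 genes, threshold 0.05). DESeq2 1.42.0 and limma-voom (limma 3.58.1) were alternatives, with other normalizations, filters, left-out libraries, a replicate block and a term for library sets (ILC1 replicate 3, the matrix-rich libraries, and the 2 remaining NK libraries). The test was also run on simulated data, and since no outcome is given here that run says nothing of its power on these libraries. Lengths and positions come from GENCODE M21 on GRCm38. The 8 factors and the lists were chosen with earlier results of these data known. All 8 factors are named, with up to 4 genes of smallest p from each list, the 3 genes nearest to each factor and marker sums; other genes were named after their values were seen. One gene that this rule selects is not reported here.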

Additional observations from a re-analysis of the deposited data

How the results depend on the processing

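Over every setting other than the Ncr1 scale, each of the 7 tested factors kept the sign of its log2 fold change. With single libraries left out, Tcf7 ran from -1.93 to -1.40, Lef1 from -1.17 to -0.62, Myb from -2.57 to -1.75, Bach2 from -1.09 to -0.64, Id2 from -0.39 to -0.23, Id3 from 0.89 to 3.54 and Tox from -0.74 to -0.36, and none passed. Tcf7 passed with no low-count filter (-1.66, edgeR adjusted p = 0.0480) and by DESeq2 (-1.67), as did Myb by DESeq2 (-2.14). With limma-voom and library weights Tcf7 (-1.48), Myb (-1.84), Bach2 (-0.70) and Id3 (3.38) passed. Within the matrix-rich libraries alone, the log2 fold changes of 4 factors were -1.11 for Tcf7, -0.55 for Lef1, -1.68 for Myb and -0.64 for Bach2. The lone NK library there has no spread of its own, so these values say nothing of the spread among NK samples and no calls are given. In the settings with all 6 libraries, the lower factors past the threshold numbered 1 with no filter, 2 by DESeq2 and 3 with weights, and 1 higher with weights. The cause of these shifts was not tested.

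Over all genes, 11 higher and 1 lower became 47 and 91 with no filter, 426 and 584 by DESeq2, 1147 and 1150 with weights, and 956 and 935 in the matrix-rich libraries. The counts in the matrix-rich libraries rest on a single NK library with no spread of its own, and are not read as calls. Lower genes numbered 2 with a minimum mean of 5 CPM, 2 by limma-voom and 17 with library sets. With single libraries left out, higher ran from 0 to 250 and lower from 0 to 199, both highest without NK replicate 3 and both 0 without ILC1 replicate 1 or 2 or NK replicate 1 or 2 (1266 to 2026 genes at an unadjusted p under 0.05, against 2283 with all libraries). Of 74 list genes tested, DESeq2 called 10 higher and 8 lower, against 1 and 0 by edgeR. Over all tested genes DESeq2 called 2.94% higher and 4.03% lower, and the lists were chosen with earlier results of these data known. The labels do not say that replicate numbers pair the samples. Deviations of same-numbered libraries from their group means correlated at -0.36, -0.36 and -0.56. Those of NK replicate 3 correlated at 0.49 and 0.57 with ILC1 replicates 1 and 2, so they follow the library sets. They therefore cannot decide whether samples were paired. A replicate block gave 0 higher and 0 lower genes (1584 at an unadjusted p under 0.05).

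Scaled to Ncr1 counts, added after the data were seen, Id2 was 0.37 and Tox 0.14. Among the 29 list genes that the naming rule selects, Tcf3 turned to 0.044 with library sets and 0.0017 in the matrix-rich libraries, Nfe2l2 to -0.046 and -0.087, and Tox4 to -0.10 with weights, and ran from -0.080 (without ILC1 replicate 3) to 0.17 with single libraries left out. The longest transcript moved 2 places in the order of levels. Depth left Tox2 under the limit of 3 counts in every library.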
